A study of Homo sapiens with 9 samples.

Results

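The nuclear-encoded subunits of the oxidative phosphorylation machinery were followed on expression arrays of Huh7 cells exposed to pentagalloylglucose (PGG). Members were the probe sets paired with exactly 1 gene symbol that begins like a subunit of complex I (NDUFA, NDUFB, NDUFC, NDUFS or NDUFV and a number), complex II (SDHA to SDHD), complex III (UQCR), complex IV (COX4 to COX8) or complex V (ATP5F, ATP5M or ATP5P). The rule used no measured value and found 153 probe sets of 80 genes, out of 19775 genes on the array. Of these, 75 were subunit genes, namely 32 of complex I, 3 of complex II, 6 of complex III, 17 of complex IV and 17 of complex V. The other 5 were loci that share a name with a subunit (ATP5MC2P1 and COX6A1P1, which are pseudogenes, the antisense loci NDUFB2-AS1 and NDUFV2-AS1, and NDUFV1-DT, a divergent transcript). Subunits without a probe set of their own were not analysed here.

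Huh7 is an established line of human hepatocellular carcinoma, and PGG is a plant polyphenol in which galloyl groups are attached to glucose. Cells received PGG at 0.1 mg/mL for 48 hours (PGG 48 h), PGG at 0.1 mg/mL for 6 hours (PGG 6 h) or only the solvent PBS for 48 hours (PBS), with 3 arrays, titled biological replicates, for each. The titles of the PBS arrays say 48 hours, while their descriptions speak of 0 hours of PGG. PBS cells of 6 hours were not analysed here, so the 6 hour comparison sets 6 hours of PGG against 48 hours of PBS, and both comparisons with PBS use the same 3 PBS arrays.

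In the inner mitochondrial membrane, complexes I to IV pass electrons from NADH and succinate through coenzyme Q and cytochrome c to oxygen, and complex V uses the resulting proton gradient to make ATP. Complex I takes electrons from NADH through its peripheral arm and pumps protons through its membrane arm, complex II links the tricarboxylic acid cycle to the chain, and complex IV is built with tissue or oxygen-dependent isoforms of several small subunits. The subunits measured here are encoded in the nucleus, and hepatocytes are rich in mitochondria that carry them.

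Values are log2 signals per probe set, normalised by the authors with RMA (robust multi-array average), so a difference of 1 is a doubling of signal. Each gene was represented by the probe set with its highest mean, and a gene was called higher or lower at an adjusted p under 0.05 from limma, with Benjamini-Hochberg adjustment over all 19775 genes. Of the 75 subunit genes, 70 lay above the array median on all 9 arrays. The array medians were 5.17 to 5.20 and the correlations within a group 0.993 to 0.998. Signs of RNA quality moved with the 48 hour group. The 3′ control probe set of ACTB exceeded its 5′ one by 2.14, 4.03 and 2.67 on the PGG 48 h arrays, 1.13, 1.15 and 1.23 on the PGG 6 h arrays and 0.96, 1.57 and 1.51 on the PBS arrays. For GAPDH the excess was 0.27, 1.83 and 0.39 on the PGG 48 h arrays and 0.13 to 0.35 on the other 6. The second PGG 48 h array therefore stood apart in both. For some of the results below, values without it or its own readings are given. All 10 measured hepatoma markers (ALB and AFP among them) lay above the array median on all 9 arrays, with summed levels of 114.2 to 114.5 in PGG 48 h, 117.6 to 118.1 in PGG 6 h and 115.5 to 116.5 in PBS. The 9 immune and stromal markers summed to 47.6 to 48.1 in PGG 48 h, 44.6 to 45.6 in PGG 6 h and 45.6 to 46.5 in PBS, 3 of them lay above the array median on all arrays, and PTPRC stayed near the bottom of the scale at 3.34, 3.38 and 3.30 in the same order of groups. At 48 hours 2 of the 9 were called higher than PBS (LUM and PECAM1) and 3 lower (CD14, CD3E and COL1A1). LUM, a stromal proteoglycan, averaged 6.19 in PGG 48 h and 2.93 in PBS, and CD14 averaged 4.78 and 6.16. The part of these values in the subunit results was not tested.

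After 48 hours of PGG, most of the subunit genes that changed were lower, and they belonged mainly to complexes I and V. Of the 75 subunit genes, 37 fell and 11 rose relative to PBS, and 27 did not pass the test (49.3% lower and 14.7% higher, limma). Over all genes on the array the shares called were 24.3% lower and 23.9% higher. The median log2 difference of the subunit genes was -0.15, against -0.02 over all genes. For 43 subunit genes the 3 PGG 48 h arrays all lay below the 3 PBS arrays, and for 12 all above, where over all genes such separation was found for 26.5% (lower) and 25.3% (higher). Complex I had 19 of 32 genes lower and 4 higher, with a median difference of -0.33. Complex V had 12 of 17 lower and 0 higher (also 0 higher at an unadjusted p under 0.05 and by the methods' t-test), with a median of -0.35. These counts and medians moved when probe sets ending in _x_at and _s_at, which can take up related sequences or several transcripts, were left out. Complex I then had 12 of 26 genes lower and 3 higher with a median of -0.19, and complex V 6 of 13 lower and 1 higher with a median of -0.10. With the mean of all probe sets of a gene complex V had 12 of 17 lower and 1 higher. The other complexes were mixed, with 1 lower and 2 higher of 3 genes in complex II, 2 lower and 1 higher of 6 in complex III, and 3 lower and 4 higher of 17 in complex IV. Without the second PGG 48 h array the counts lower were 20, 1, 2, 3 and 12 for complexes I to V.

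**Figure D1:**
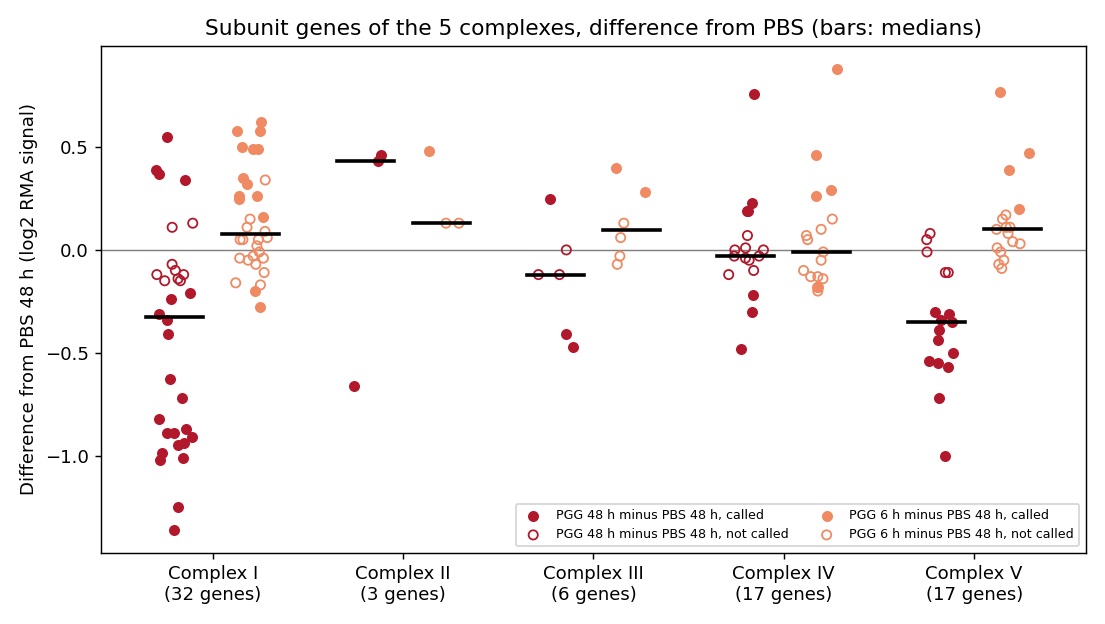
Difference from PBS 48 h in log2 RMA signal (vertical axis) for each of the 75 subunit genes, by complex, with PGG 48 h left of PGG 6 h; filled points were called at an adjusted p under 0.05 and bars are medians. The 48 hour medians of complexes I and V lie at -0.33 and -0.35, while their 6 hour medians lie at 0.08 and 0.10.

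By the brightest probe set of each gene, the membrane arm of complex I held the largest fall of the set. NDUFB1, a small accessory subunit with a membrane span, had signals of 9.65, 9.72 and 9.72 in PGG 48 h, 11.04, 11.06 and 11.06 in PGG 6 h and 11.02, 11.14 and 11.02 in PBS. The 48 hour arrays were all more than a log2 unit below the others, and the 6 hour and PBS arrays overlapped. The difference from PBS was -1.36 ± 0.06 (SE, n = 3 arrays per group), a signal 2.57-fold lower (adjusted p = 2.7e-09, limma). Its second probe set was dim, below the array median on all 9 arrays, and differed by -0.12 (adjusted p = 0.19 over all probe sets, limma).

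NDUFB2 and NDUFB8, accessory subunits of the same arm, each had another bright probe set that fell as well. NDUFB2 read 9.57, 9.70 and 9.68 in PGG 48 h, 10.64, 10.76 and 10.67 in PGG 6 h and 10.55, 10.79 and 10.66 in PBS, a 48 hour difference of -1.02 ± 0.07 (SE). NDUFB8 read 9.98, 10.13 and 10.08 in PGG 48 h, 10.84, 10.80 and 10.80 in PGG 6 h and 10.94, 11 and 10.99 in PBS, a 48 hour difference of -0.91 ± 0.06 (SE). In both genes every 48 hour array lay below every other array. The next brightest probe sets fell by 0.94 for NDUFB2 and by 1.05 for NDUFB8 (adjusted p = 1.7e-06 and 9.3e-08 over all probe sets, limma). NDUFB10 (-0.99 ± 0.06), NDUFA13 (-0.95 ± 0.06), NDUFA11 (-0.87 ± 0.08) and NDUFA3 (-0.82 ± 0.08) of the membrane arm fell likewise. NDUFB7, a subunit facing the intermembrane space, was the least even: its PGG 48 h arrays read 7.82, 6.69 and 7.62, with the lowest on the second array, against 8.67, 8.61 and 8.69 in PGG 6 h and 8.43, 8.27 and 8.24 in PBS (difference -0.94 ± 0.22, adjusted p = 0.003, limma). Without the second PGG 48 h array the difference was -0.59 (adjusted p = 9.2e-05, limma). Over the 18 measured membrane arm genes, 10 fell, 1 rose (NDUFA1, 0.37 ± 0.07) and 7 did not pass the test.

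In the peripheral arm, NDUFS6, an accessory subunit that binds zinc, fell most. It read 8.66, 8.89 and 8.74 in PGG 48 h, 10.16, 10.14 and 10.08 in PGG 6 h and 9.91, 10.07 and 10.06 in PBS, with no overlap between the 48 hour arrays and the rest. The difference from PBS was -1.25 ± 0.07 (SE), or 2.38-fold lower (adjusted p = 3.2e-08, limma). The core subunits, among which are those that carry the flavin and the iron-sulphur clusters, did not move as a block. NDUFS7, which holds the last cluster before coenzyme Q, fell (8.37, 8.0 and 8.38 in PGG 48 h, against 9.21, 9.28 and 9.29 in PBS, -1.01 ± 0.09), as did the NADH-binding NDUFV1 (-0.63 ± 0.06) and its neighbour NDUFV2 (-0.31 ± 0.06). The difference for NDUFS7 rests on a probe set of the _s_at type, and the other probe set of the gene differed by -0.07. NDUFS3 differed by -0.12 and did not pass the test (adjusted p = 0.16, limma). NDUFS1 had a difference of 0.34 ± 0.06 on its brightest probe set, whereas a second one above the array median on all 9 arrays fell by 0.94 (adjusted p = 3.3e-07 over all probe sets, limma), so its direction depends on the probe set.

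A few complex I genes went the other way. NDUFA2, a small subunit with a thioredoxin-like fold in the peripheral arm, read 10.38, 10.57 and 10.39 in PGG 48 h, 10.45, 10.49 and 10.51 in PGG 6 h and 9.82, 9.97 and 9.91 in PBS. Both PGG groups lay above PBS on every array and overlapped with each other. The 48 hour difference was 0.55 ± 0.07 (adjusted p = 3e-05, limma), on a single bright probe set, since the other 2 of the gene lay below the array median on all arrays and did not pass the test. NDUFA5 rose by 0.39 ± 0.09 (10.83, 10.73 and 11.05 in PGG 48 h, against 10.48, 10.54 and 10.43 in PBS). In complex I as a whole, 26 of 32 genes had a negative 48 hour difference.

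**Figure D2:**
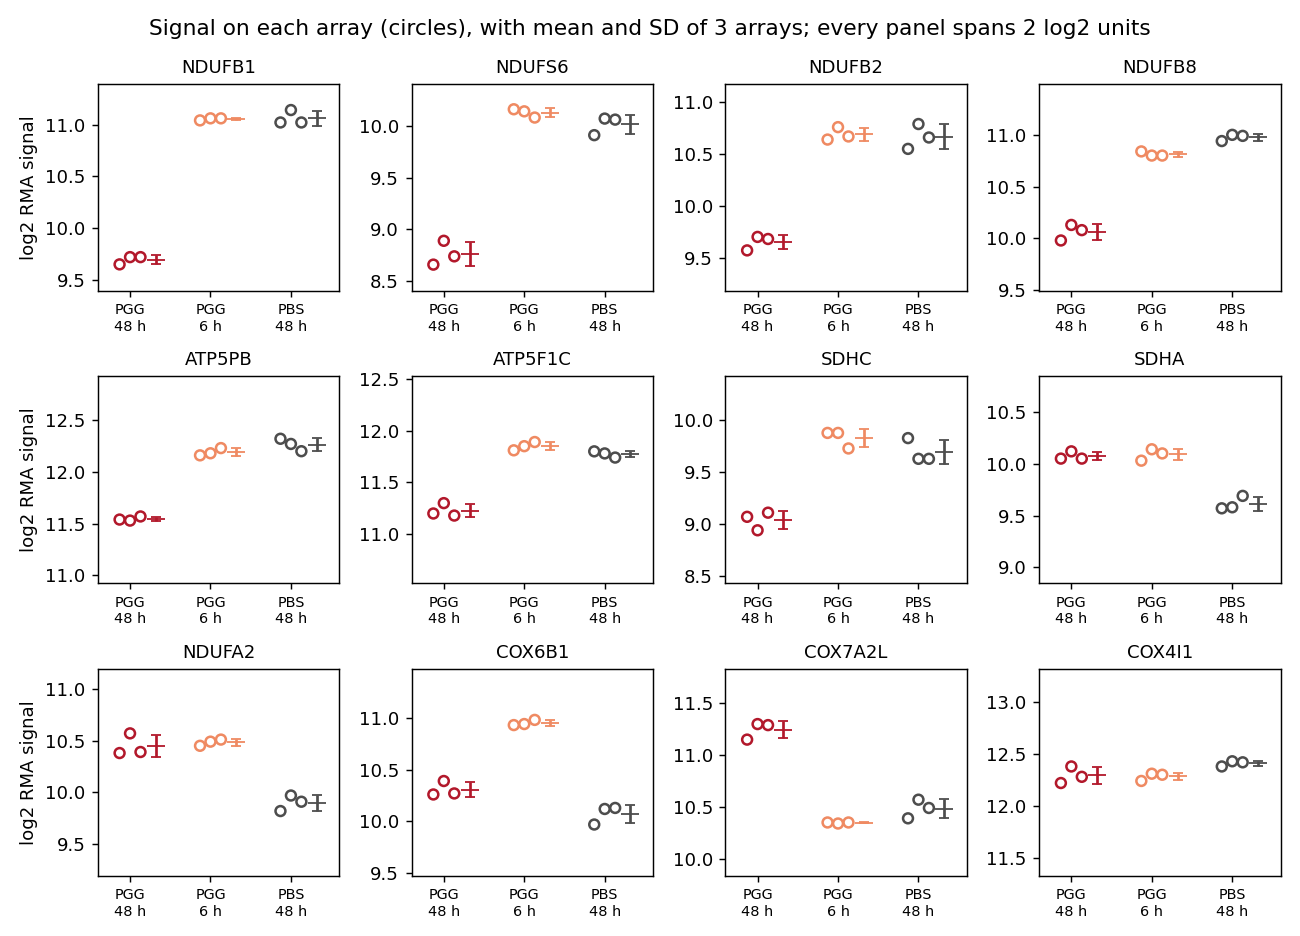
Log2 RMA signal of 12 subunit genes on each of the 9 arrays (circles), with PGG 48 h, PGG 6 h and PBS 48 h from left to right and the mean with its SD over 3 arrays beside the circles; each panel spans 2 log2 units. NDUFB1, NDUFS6, NDUFB2, NDUFB8, ATP5PB, ATP5F1C and SDHC are lower in PGG 48 h than in both other groups on every array, COX7A2L is higher, and SDHA and NDUFA2 are higher than PBS in both PGG groups.

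Complex II, also an enzyme of the tricarboxylic acid cycle, split between its subunits. SDHA, the flavin-bearing catalytic subunit, read 10.05, 10.12 and 10.05 in PGG 48 h, 10.03, 10.14 and 10.10 in PGG 6 h and 9.57, 9.58 and 9.69 in PBS. The difference from PBS was 0.46 ± 0.06 for PGG 48 h (adjusted p = 4.9e-05, limma) and 0.48 ± 0.06 for PGG 6 h (adjusted p = 8.1e-05, limma), on its only probe set, which is of the _x_at type that can take up related sequences. SDHC, a membrane anchor, read 9.07, 8.94 and 9.11 in PGG 48 h, 9.88, 9.88 and 9.73 in PGG 6 h and 9.83, 9.63 and 9.63 in PBS. It fell by 0.66 ± 0.08 at 48 hours (adjusted p = 1.6e-05, limma), and was 0.13 ± 0.08 from PBS at 6 hours, which did not pass the test. All 7 probe sets of SDHC had a negative 48 hour difference, from -0.21 to -1.30. SDHD, the other anchor, read 10.72, 10.61 and 10.79 in PGG 48 h, 10.51, 10.28 and 10.43 in PGG 6 h and 10.33, 10.30 and 10.20 in PBS, a rise of 0.43 ± 0.08 at 48 hours (adjusted p = 0.00048, limma). The rise of SDHD is from the brighter of its 2 probe sets. With the mean of all probe sets SDHD differed by 0.17 from PBS at 48 hours and was still called higher. It was then not called higher at 48 than at 6 hours. The anchors thus moved in opposite directions from PBS at 48 hours, with the size of the SDHD rise depending on the probe set.

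Complex III held few calls. The core subunit UQCRC2 rose by 0.25 ± 0.06 at 48 hours (10.85, 10.94 and 10.87 in PGG 48 h, against 10.64, 10.68 and 10.60 in PBS). This rise rests on a probe set of the _s_at type. Without _x_at and _s_at probe sets 0 of the 6 complex III genes were higher at 48 hours and 4 were lower. UQCRC1, the partner of UQCRC2, differed by -0.12 ± 0.06 and did not pass the test (adjusted p = 0.14, limma). The accessory subunits UQCR11 (-0.47 ± 0.07) and UQCRQ (-0.41 ± 0.07) fell. UQCR10 differed by -0.12 ± 0.06 on its brighter probe set and did not pass, while a second probe set, above the array median on all arrays, fell by 1.58 (adjusted p = 2.6e-08 over all probe sets, limma). UQCRB differed by 0.00 ± 0.06. The count of complex III genes lower at 48 hours was 2 here and 4 when all probe sets of a gene were averaged.

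Complex IV showed no common direction. Neither isoform of its subunit 4, of which the second is known to replace the first in low oxygen, passed the test on its brightest probe set. COX4I1, the ubiquitous form of subunit 4, read 12.22, 12.38 and 12.28 in PGG 48 h, 12.24, 12.31 and 12.30 in PGG 6 h and 12.38, 12.43 and 12.42 in PBS. Its differences from PBS were -0.12 at 48 hours (95% interval -0.25 to 0.02) and -0.13 at 6 hours (-0.26 to 0.01), and neither passed the test. These values come from a probe set of the _x_at type, and on the brightest of the other kind the 6 hour difference was 0.29 (adjusted p = 0.066 over all probe sets, limma) and passed the test when genes were compared without _x_at and _s_at probe sets, so its direction depends on the probe set. COX4I2, the isoform abundant in lung, read 5.95, 5.77 and 5.95 in PGG 48 h, 6.01, 5.98 and 5.95 in PGG 6 h and 6.03, 5.95 and 5.82 in PBS. The groups overlapped, and the 48 hour difference was -0.04 (95% interval -0.21 to 0.12, adjusted p = 0.68, limma). The other alternative isoforms, of muscle or testis, were also at low signal. COX6A2, COX6B2, COX7A1, COX7B2 and COX8C had means from 2.64 to 5.27 over the 9 arrays and 48 hour differences from -0.10 to 0.07, and 0 of the 6 alternative isoforms passed the test at either time (limma, with 0 at an unadjusted p under 0.05 at 48 hours and 1 at 6 hours, and 0 by the methods' t-test). Their ubiquitous partners were at higher signal. Of these, COX6B1, COX7A2 and COX7B were called higher at 48 hours, while COX4I1, COX6A1 and COX8A did not pass the test. At 6 hours COX6B1, COX7A2 and COX7B were also called higher, and COX6A1 was called lower (-0.18).

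COX6B1, a subunit that faces the intermembrane space, rose at both times, by 0.23 ± 0.07 at 48 hours and 0.88 ± 0.07 at 6 hours. It read 10.26, 10.39 and 10.27 in PGG 48 h, 10.93, 10.94 and 10.98 in PGG 6 h and 9.97, 10.12 and 10.13 in PBS, so that the 3 groups did not overlap and the 6 hour group was the highest. COX7B (0.19 ± 0.06) and COX7A2 (0.19 ± 0.06) rose slightly at 48 hours. A second, dim probe set of COX7B fell by 1.5. COX6A1 and COX8A differed by -0.05 and 0.01 and did not pass the test. COX5B fell by 0.48 ± 0.06, COX6C by 0.30 ± 0.06 and COX5A by 0.22 ± 0.06. The largest rise against PBS at 48 hours was that of COX7A2L, which encodes a relative of subunit 7a known as a supercomplex assembly factor. It read 11.15, 11.30 and 11.29 in PGG 48 h, 10.35, 10.34 and 10.35 in PGG 6 h and 10.39, 10.57 and 10.49 in PBS. Only the 48 hour arrays were raised, with a difference from PBS of 0.76 ± 0.07, or 1.70-fold (adjusted p = 1.1e-06, limma), and of 0.90 ± 0.07 from PGG 6 h.

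In complex V the calls by brightest probe set differed in number between the parts of the enzyme, a difference that was not tested. All 5 genes of the F1 head and central stalk and all 4 of the peripheral stalk fell at 48 hours (limma), with medians of -0.50 and -0.47. ATP5F1D, the delta subunit of the central stalk, fell most, by 1.00 ± 0.12, but with its lowest array again the second of PGG 48 h (8.60, 8.09 and 8.52, against 9.23, 9.49 and 9.50 in PBS), and by 0.85 without that array. ATP5F1C, the gamma subunit, was even: 11.20, 11.30 and 11.18 in PGG 48 h, 11.81, 11.85 and 11.89 in PGG 6 h and 11.80, 11.78 and 11.74 in PBS, a difference of -0.55 ± 0.06. Its 3 probe sets of the _x_at type all fell, whereas the remaining one, dimmer but above the array median on all 9 arrays, differed by 0.12 at 48 hours without passing the test (adjusted p = 0.19 over all probe sets, limma) and was higher in PGG 48 h than in PGG 6 h by 0.22. The catalytic beta subunit ATP5F1B fell by 0.35 ± 0.06 and the alpha subunit ATP5F1A by 0.44 ± 0.06. ATP5PB, the b subunit of the peripheral stalk, read 11.54, 11.53 and 11.57 in PGG 48 h, 12.16, 12.18 and 12.23 in PGG 6 h and 12.32, 12.27 and 12.20 in PBS. Its difference was -0.72 ± 0.06, or 1.64-fold lower (adjusted p = 5.6e-07, limma), and the other stalk genes ATP5PD, ATP5PO and ATP5PF fell by 0.54, by 0.39 and by 0.34. Of the 3 genes for the c ring, which encode the same mature protein, ATP5MC3 fell by 0.57 ± 0.06 and ATP5MC1 by 0.31 ± 0.08. ATP5MC2 differed by -0.11 ± 0.12 without passing the test. It read 10.97, 10.40 and 10.91 in PGG 48 h and 10.89, 10.94 and 10.79 in PBS, with its lowest array again the second of PGG 48 h. In the membrane accessory group 1 of 5 fell (ATP5MG, -0.30 ± 0.07), and ATP5MJ, the highest of complex V, differed by 0.08 ± 0.06.

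**Figure D3:**
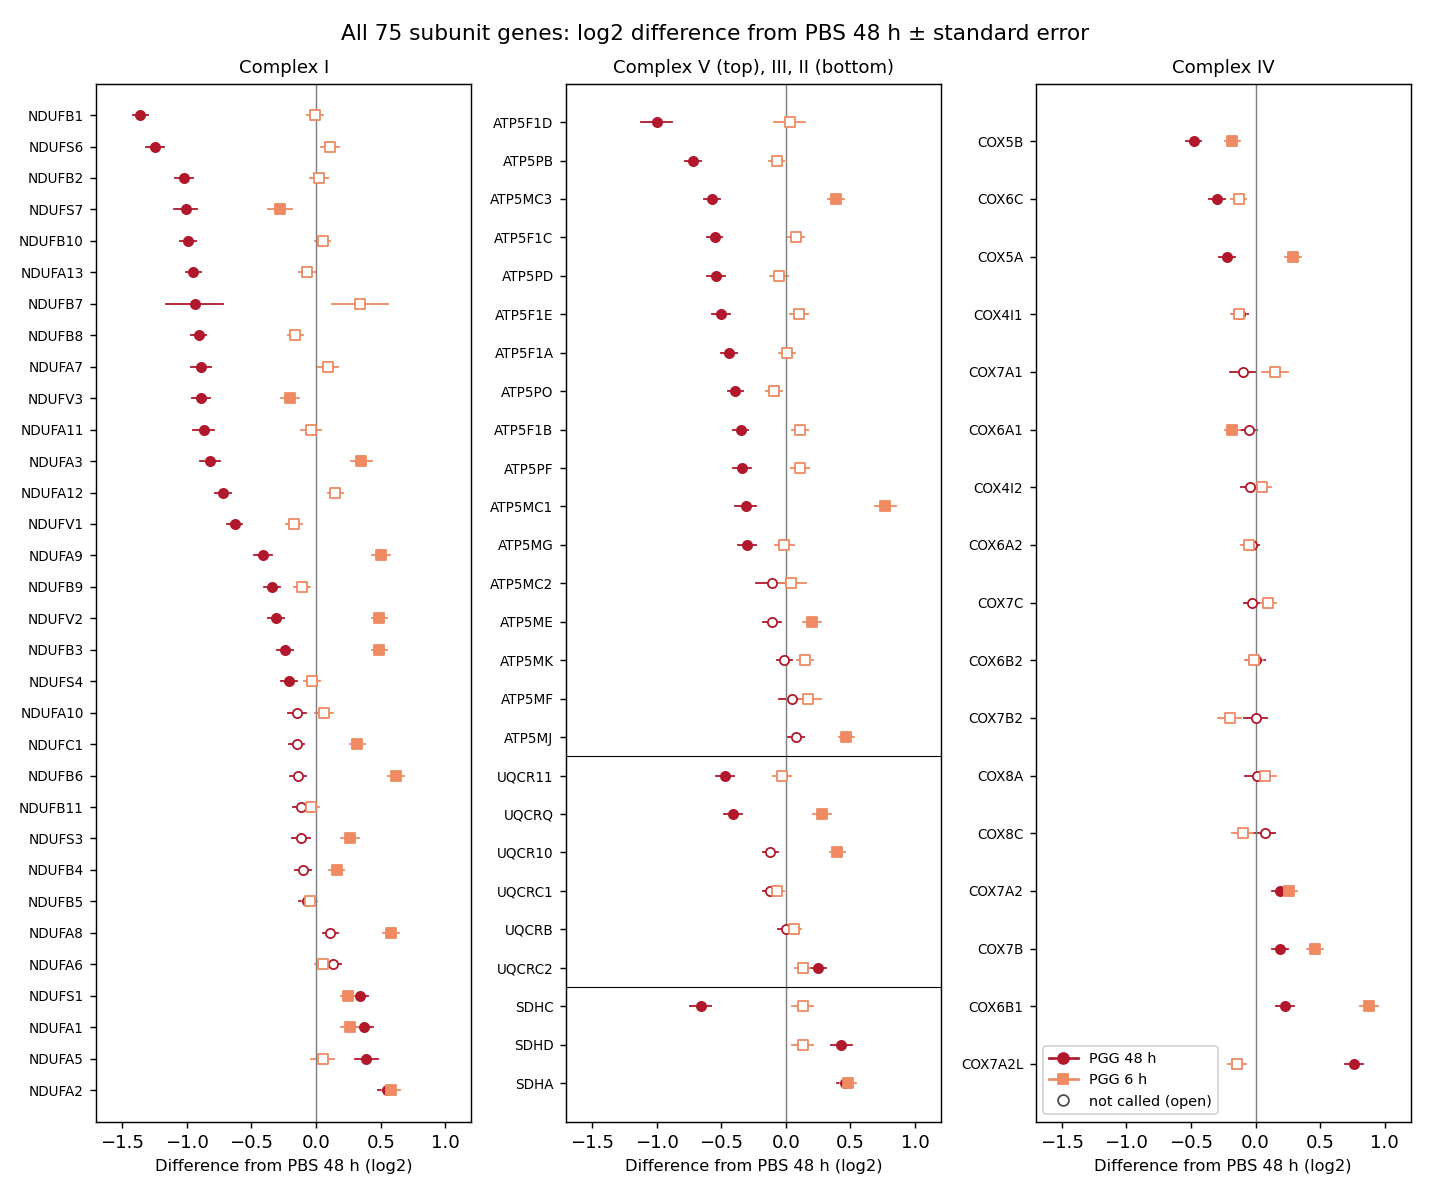
Log2 difference from PBS 48 h (horizontal axis) with its standard error for all 75 subunit genes, in panels by complex and ordered by the 48 hour difference; red circles are PGG 48 h, orange squares PGG 6 h, and open symbols did not pass the test. NDUFB1 at -1.36 and COX7A2L at 0.76 are the extremes at 48 hours, and most orange squares lie right of the red circles.

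At 6 hours the calls ran in the other direction. Of the 75 subunit genes 23 rose, 4 fell and 48 did not pass the test (30.7% and 5.33%), where over all genes 17.2% were called higher and 16.9% lower. Complex I contributed 12 of the rises, complexes IV and V 4 each, complex III 2 and complex II 1. The median difference over all 75 was 0.08. The 23 rises ranged between 0.16 and 0.88 with a median of 0.40, and COX6B1, at 1.84-fold, was the largest. ATP5MC1, a c ring gene, read 10.11, 10.32 and 10.17 in PGG 6 h and 9.40, 9.47 and 9.42 in PBS, a rise of 0.77 ± 0.08 (adjusted p = 1.1e-05, limma). NDUFB6 (0.62), NDUFA8 (0.58), NDUFA2 (0.58), NDUFA9 (0.50), NDUFB3 (0.49) and NDUFV2 (0.49) of complex I rose, each with an SE of 0.06 or 0.07, as did ATP5MJ of complex V (0.47 ± 0.06). At 48 hours NDUFB6 differed by -0.14 on its bright probe set and did not pass the test (adjusted p = 0.072, limma), and without _x_at and _s_at probe sets it differed by 0.66. The falls were NDUFS7 (-0.28), NDUFV3 (-0.20), COX5B (-0.18) and COX6A1 (-0.18), with adjusted p between 0.029 and 0.043 (limma), and the count of 4 became 0 when PBS replicate 2 or any single PGG 6 h replicate was left out, 2 without PBS replicate 3 and 7 without PGG 48 h replicate 2. The direction of NDUFV3 at 6 hours depends on the probe set, at 0.04 with the mean of its probe sets and 0.27 without those ending in _x_at and _s_at.

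PGG 48 h set directly against PGG 6 h showed the contrast most clearly. Of the 75 subunit genes 48 were lower at 48 hours, 3 were higher and 24 did not pass the test (64% lower and 4% higher). The 3 were COX7A2L, NDUFA5 and SDHD, the last by its brighter probe set but not with the mean of its probe sets. Over all genes 23.4% were called lower and 23.6% higher. The median difference of the subunit genes was -0.38, against -0.01 over all genes. Complex I had 25 of 32 genes lower with a median of -0.71, and complex V 14 of 17 with a median of -0.46. All 17 complex V genes had a negative difference by their brightest probe set. That of ATP5MC2 (-0.15) rested on the second PGG 48 h array, the only one below all PGG 6 h arrays. It read 10.97, 10.40 and 10.91 in PGG 48 h and 10.86, 10.94 and 10.93 in PGG 6 h. Without _x_at and _s_at probe sets complex I had 19 of 26 lower and 1 higher with a median of -0.44, and complex V 6 of 13 lower and 1 higher with a median of -0.17. All 37 genes called lower than PBS at 48 hours were also called lower than at 6 hours. These comparisons share their PGG 48 h arrays, so the overlap is no independent check. Of the 23 genes higher at 6 hours, 7 were also higher than PBS at 48 hours, 8 were lower and 8 did not pass the test. For 26 genes a fall at 48 hours stood beside no call at 6 hours. NDUFS6 and NDUFB1 showed this most plainly, with 48 hour differences of -1.25 and -1.36 and 6 hour differences of 0.11 and -0.01.

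The 8 genes called in opposite directions against PBS came from complexes I (NDUFA3, NDUFA9, NDUFB3 and NDUFV2), III (UQCRQ), IV (COX5A) and V (ATP5MC1 and ATP5MC3). NDUFA3, a membrane arm subunit, read 8.36, 8.40 and 8.33 in PGG 48 h, 9.42, 9.50 and 9.66 in PGG 6 h and 9.18, 9.27 and 9.09 in PBS, so the 3 groups were separate with PBS in the middle. NDUFA9, which lies close to the coenzyme Q site, read 9.12, 9.34 and 9.32 in PGG 48 h, 10.13, 10.18 and 10.20 in PGG 6 h and 9.66, 9.69 and 9.66 in PBS, again with separate groups. ATP5MC3 read 10.98, 11.09 and 10.96 in PGG 48 h, 11.93, 11.99 and 11.97 in PGG 6 h and 11.59, 11.57 and 11.57 in PBS. In all 3 the 6 hour arrays were the highest and the 48 hour arrays the lowest.

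Over the 153 member probe sets, without choosing 1 per gene, 74 were lower and 17 higher at 48 hours (limma, adjusted over 54613 probe sets, of which 20.2% were lower and 18.8% higher). Of 31 called genes with several probe sets, 17 had another probe set called the same way and 3 had one called the other way (NDUFS1, COX7B and NDUFV2-AS1). At 6 hours 29 member probe sets were higher and 6 lower (12.2% and 12.5% of all probe sets), and of 15 called genes with several probe sets 5 had another called the same way, while NDUFS1 and UQCR10 had one called the other way. Between PGG 48 h and PGG 6 h the same held for 22 of 35, and NDUFA10 and ATP5F1C had one called the other way. Of the 5 loci that are no subunits, NDUFV2-AS1 was called at 48 hours, by 0.44 ± 0.11 at a mean signal of 4.68, with its second probe set at -0.44, and the other 4 did not pass the test at either time.

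Promoter sequences were matched for 64 of the 75 subunit genes in the RefSeq table of GRCh38.p14, as windows of 300 bases around an annotated transcript start, against the windows of 27305 genes. For 9 of the 64 genes the table gives several starts, and the first listed was used. The sites searched on both strands were the ETS core CCGGAAG, the NRF1 core GCATGCG, the YY1 site AAGATGG, the E-box CACGTG that MYC and MAX can bind, and the hypoxia core ACGTG, which every E-box of this form also holds. The first 3 are known from respiratory gene promoters. The shares with a match were 28.1% of subunit genes and 10.7% of all promoters for the ETS core, 18.8% and 4.13% for the NRF1 core, 23.4% and 6.06% for YY1, 10.9% and 7.43% for the E-box, and 26.6% and 21.6% for the hypoxia core. With a match in any window of a gene they were 29.7% and 12.2%, 20.3% and 4.74%, 26.6% and 7.11%, 10.9% and 8.77%, and 26.6% and 24.9%, in the same order of motifs. Of the 31 genes lower at 48 hours with a promoter 6 held the E-box (NDUFA7, NDUFA11, NDUFS7, UQCR11, ATP5MC1 and ATP5PB), of the 11 higher 0, and of the 22 others 1 (ATP5ME). In the same order of calls the YY1 site was held by 10, 1 and 4, the hypoxia core by 10, 2 and 5, the ETS core by 8, 4 and 6, and the NRF1 core by 5, 1 and 6. These splits were not tested. A match is a description of the letters in this window. The promoters of 4 genes are shown, those with the largest fall at 48 hours (NDUFB1), the next largest (NDUFS6), the largest fall of the peripheral stalk of complex V (ATP5PB) and the largest rise at 48 hours (COX7A2L), each 5′ to 3′ along the gene's strand. Capitals mark the motif matches: overlapping NRF1 cores on both strands in NDUFS6, and in ATP5PB the E-box and the YY1 site, the second as its reverse complement. NDUFB1 and COX7A2L held none of the 5 motifs. The window shown for COX7A2L is the first listed of 2, lies at a start inside the longest annotated extent of the gene, and the other window also held none.
NDUFB1, chr14:92121657-92121956, minus strand: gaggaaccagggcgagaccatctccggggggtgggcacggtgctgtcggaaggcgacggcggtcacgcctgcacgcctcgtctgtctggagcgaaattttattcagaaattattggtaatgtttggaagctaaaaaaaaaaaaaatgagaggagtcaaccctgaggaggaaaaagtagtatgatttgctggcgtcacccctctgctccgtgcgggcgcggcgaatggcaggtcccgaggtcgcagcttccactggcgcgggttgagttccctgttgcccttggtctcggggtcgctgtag
NDUFS6, chr5:1801157-1801456, plus strand: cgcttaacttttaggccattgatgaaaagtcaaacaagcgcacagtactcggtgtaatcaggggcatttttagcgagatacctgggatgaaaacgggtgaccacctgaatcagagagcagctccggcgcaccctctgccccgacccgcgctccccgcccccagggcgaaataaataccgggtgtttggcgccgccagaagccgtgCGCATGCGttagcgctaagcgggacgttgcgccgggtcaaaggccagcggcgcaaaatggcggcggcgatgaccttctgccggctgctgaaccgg
ATP5PB, chr1:111449214-111449513, plus strand: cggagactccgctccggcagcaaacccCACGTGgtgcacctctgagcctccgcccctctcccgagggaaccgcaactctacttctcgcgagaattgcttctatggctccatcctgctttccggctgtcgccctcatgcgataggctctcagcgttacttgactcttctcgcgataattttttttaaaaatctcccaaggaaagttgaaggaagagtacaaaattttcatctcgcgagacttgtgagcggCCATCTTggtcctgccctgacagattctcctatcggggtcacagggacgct
COX7A2L, chr2:42361168-42361467, minus strand: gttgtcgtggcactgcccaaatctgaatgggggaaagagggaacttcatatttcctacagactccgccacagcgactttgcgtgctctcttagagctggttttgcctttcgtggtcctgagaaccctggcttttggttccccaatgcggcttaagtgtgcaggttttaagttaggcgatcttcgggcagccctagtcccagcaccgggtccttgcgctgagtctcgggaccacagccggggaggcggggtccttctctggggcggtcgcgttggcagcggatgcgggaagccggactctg

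Assembly factors of the complexes fell in larger numbers than they rose at 48 hours. Of 16 complex I assembly factors 11 fell at 48 hours and 0 rose (limma; also 0 at an unadjusted p under 0.05 and by the methods' t-test), with a median of -0.67. NDUFAF8 averaged 6.85 in PGG 48 h and 9.05 in PBS (-2.20), NDUFAF3 averaged 7.97 in PGG 48 h and 9.97 in PBS (-2.01), and NDUFAF5 fell by 1.57. By the brightest probe set of each gene, each of these was a larger change than in any subunit gene. Of 22 complex IV assembly factors 16 fell and 5 rose. COX11, which delivers copper, at -1.21 and SURF1 at -0.95 were among the falls. PET100 at 1.10 and the copper chaperone COX17 at 0.99 were among the rises. COX17 was dim, averaging 5.51 in PGG 48 h and 4.53 in PBS, and lay above the array median on 3 arrays, so the size of its rise is uncertain. For complexes II and III 5 of 10 fell and 2 rose, with SDHAF4 at -1.38, LYRM7 at -1.34, SDHAF2 at 0.78 and SDHAF1 at 0.70. For complex V 3 of 6 fell and 2 rose, with the assembly factor ATPAF1 at -0.80, the inhibitor ATP5IF1 at -0.64 and ATPAF2 at 0.88. At 6 hours the complex I factors had 5 higher and 4 lower of 16, and the complex IV factors 10 higher and 5 lower of 22, where 17.2% of all genes were higher and 16.9% lower.

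CYC1, the cytochrome c1 of complex III, whose symbol the member rule did not take, fell by 1.27 at 48 hours (adjusted p = 4e-08, limma), while CYCS, the mobile carrier cytochrome c, differed by -0.04 (adjusted p = 0.56, limma). Among 18 genes for electron carriers and coenzyme Q synthesis 9 fell and 3 rose, led by COQ3 (-2.24) and PDSS1 (-1.55), with COQ8A at 0.99. Of 14 genes for expression of mitochondrial DNA, which encodes the remaining core subunits, 9 fell and 3 rose. MTERF3 (-1.92), MRPL12 (-1.86) and MTERF2 (-1.47) fell most, TFAM, which packages that DNA, fell by 1.45, and the polymerase POLG rose by 0.78. MRPL12 was uneven in PGG 48 h, at 8.15, 7.01 and 7.81 with the lowest on the second array, against 9.47, 9.53 and 9.54 in PBS. Of 16 tricarboxylic acid cycle genes 6 fell and 5 rose, with CS at -0.75, IDH3A at -0.83 and IDH2 at 0.90. This neighbour of the chain thus had no common direction against PBS at 48 hours. At 6 hours 6 of the 16 were higher than PBS and 1 lower (17.2% and 16.9% of all genes). Between PGG 48 h and PGG 6 h 11 were lower and 2 higher, with a median of -0.34 (23.4% and 23.6% of all genes). Of 15 carriers and membrane proteins 6 fell, with OPA1 at -1.62, and 4 rose, with the adenine nucleotide carrier SLC25A4 at 0.97 and VDAC1 at 0.86.

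**Figure D4:**
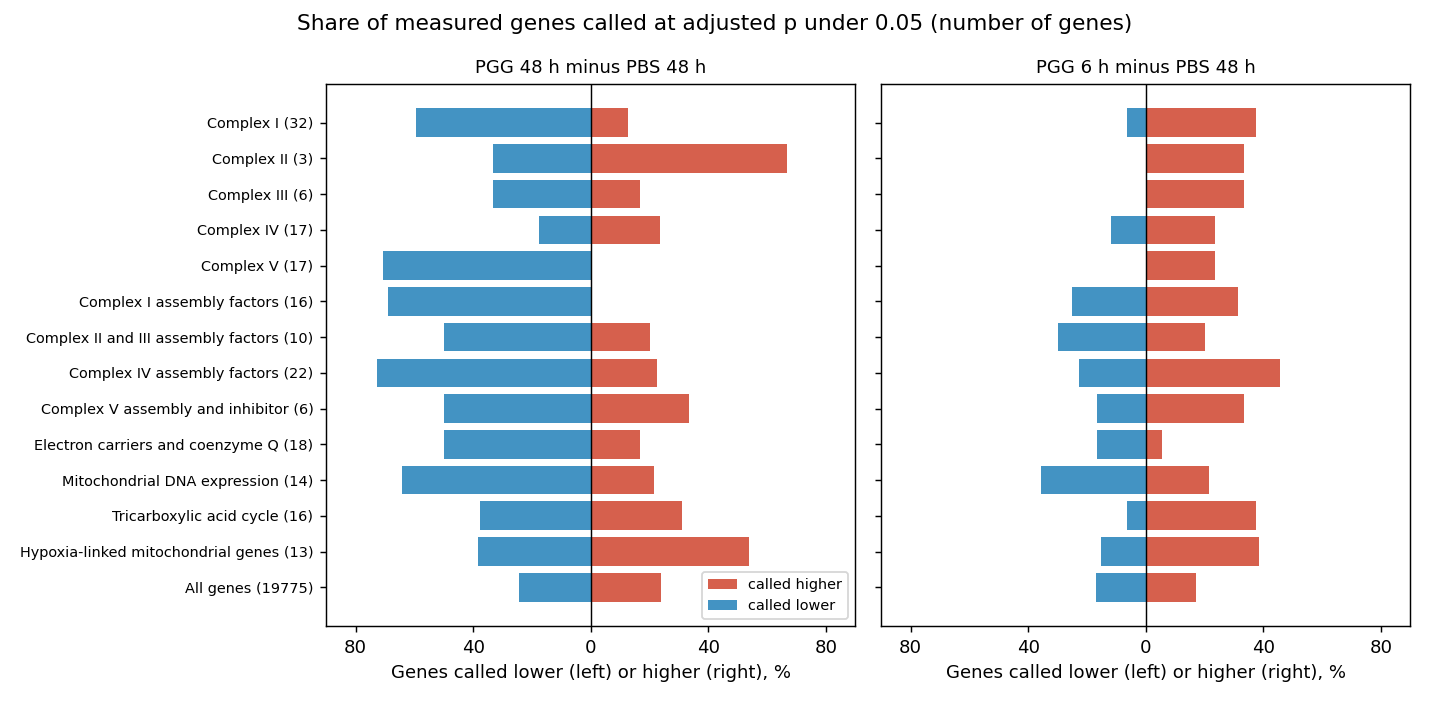
Share of measured genes called lower (blue, left) and higher (red, right) in percent at an adjusted p under 0.05, for the complexes, the related lists and all genes, with PGG 48 h in the left panel and PGG 6 h in the right; numbers of genes are in parentheses. At 48 hours every list shown except complex IV (17.6%) has a share lower above the 24.3% of all genes. The largest shares are those of the complex IV assembly factors (72.7%), complex V (70.6%), the complex I assembly factors (68.8%), mitochondrial DNA expression (64.3%) and complex I (59.4%).

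Genes known to regulate respiratory genes changed in both directions. PPARGC1A, a coactivator of mitochondrial biogenesis, averaged 7.96 in PGG 48 h, 3.85 in PGG 6 h and 4.79 in PBS, a rise of 3.17 at 48 hours (adjusted p = 2e-09, limma), whereas at 6 hours it fell by 0.94 (adjusted p = 0.00016, limma). It lay above the array median on the 3 PGG 48 h arrays only, so both differences rest on dim signals and their sizes are uncertain. MYC averaged 9.79 in PGG 48 h, 9.86 in PGG 6 h and 11.65 in PBS, lower by a similar amount at both times (-1.86 and -1.79). GABPB1, a subunit of an ETS-family factor, fell by 1.14 and GABPA, its partner, rose by 0.83 at 48 hours. Of the 12 regulators 8 fell and 3 rose at 48 hours, and 8 fell and 0 rose at 6 hours (limma; 1 rose at an unadjusted p under 0.05 and 0 by the methods' t-test), where 16.9% of all genes were lower and 17.2% higher at that time. The hypoxia-linked mitochondrial genes had 7 of 13 higher and 5 lower at 48 hours. BNIP3L (2.43) and BNIP3 (2.27), receptors for the removal of mitochondria, and PDK1 (1.61), a kinase that restrains pyruvate dehydrogenase, rose. The falls included LONP1, the protease that removes COX4I1 protein in low oxygen (-0.72), HIGD1A (-0.59) and FUNDC1 (-0.56). These lists were drawn up with earlier results of the same data known, and their counts are a description beside the 24.3% lower and 23.9% higher of all genes at 48 hours.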

How the data were processed

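Total RNA of Huh7 cells was hybridised to 9 Affymetrix arrays, and their titles gave the groups, PGG 48 h, PGG 6 h and PBS 48 h with 3 arrays each. RMA values were made by the authors in Affymetrix Expression Console (version not given in the sources used here), who deposited them on the log2 scale, 1 per probe set. The table held 54675 probe sets, of which 62 controls were left out; 41091 had 1 symbol in the platform annotation, 1801 several and 11721 none. All 80 Entrez identifiers of the members were found in the RefSeq table, and 0 symbols changed; 15 probe sets with several symbols were not used. RMA summarises the probes of a set and equalises the arrays, so a shift common to all genes cannot be seen, and in bulk RNA fewer cells of a kind and less RNA per cell cannot be told apart.

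Differences were computed with limma 3.58.1 in R 4.3.3 (lmFit, 1 mean per group, eBayes) over 19775 genes, each by its brightest probe set, or over 54613 probe sets. No depth exists for arrays, so precision rests on 3 arrays per group. Genes named were complex II, the isoform sets, the 10 largest rises and falls, the extremes of each complex, opposite calls, and per list at most 3 rises and 3 falls; others, such as NDUFA11, NDUFV1, COX6C and further ATP synthase genes, were named to complete their group after their values were seen. The members, lists and rule were chosen with earlier results of these data known. On simulated data at 48 hours, 4 of 50 genes changed by 0.25 were recovered, 42 of 50 at 0.5, 49 of 50 at 1 and 49 of 50 at 2. Of 19575 unchanged genes 8 were called. In the data 24.3% of genes were called lower and 23.9% higher at 48 hours, a far larger share than was changed in the simulation. The adjusted cut-off was therefore stricter in the simulation, and its recoveries do not give the sensitivity of the real comparison. Smaller differences passed in the data, such as -0.22 for COX5A.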

Additional observations from a re-analysis of the deposited data

Results flagged for a closer look

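For 8 subunit genes PGG was called higher than PBS at 6 hours and lower at 48 hours. They were picked for these opposite calls against the same PBS arrays, so the difference between the times follows from the choice and is given as a description. On the log2 scale PGG 48 h minus PGG 6 h was -1.16 for NDUFA3, -1.08 for ATP5MC1, -0.95 for ATP5MC3, -0.91 for NDUFA9, -0.80 for NDUFV2, -0.74 for NDUFB3, -0.69 for UQCRQ and -0.51 for COX5A. PBS cells of 6 hours were not analysed here, and effects of time without PGG cannot be told apart from those of PGG.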

How the results depend on the processing

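The counts over all 80 members, 37 lower and 12 higher at 48 hours, 23 higher at 6 hours and 48 lower at 48 than at 6 hours, stayed within 1.5 times under every alternative setting except stricter cut-offs. The methods name a q under 0.005 and a mean difference above 1.5, and a legend words the second as a fold. In the study's own list of changed genes, the mean differences of MYC are close to the log2 differences found here. Read as a log2 difference beyond 1.5, the cut-offs left 0 in each of the 6 counts with limma and 0 in each with the methods' t-test. Read as a fold beyond 1.5, an alternative chosen after seeing the data, they left 3 higher and 0 lower at 6 hours, 1 higher and 17 lower at 48 hours, and 1 higher and 26 lower at 48 against 6 hours (limma). The 4 genes lower at 6 hours became 0 with the mean of all probe sets, 7 after quantile normalization, 9 with a trended and robust variance and 8 with array weights. The 4 members higher at 48 than at 6 hours became 2 with the mean of all probe sets and 2 by the methods' t-test after Benjamini-Hochberg adjustment. Leaving out 1 array gave 20 to 24 higher and 0 to 7 lower at 6 hours, 10 to 12 higher and 36 to 38 lower at 48 hours, and 3 to 4 higher and 45 to 49 lower at 48 against 6 hours; the count of 7 came without PGG 48 h replicate 2.

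Same-numbered arrays did not deviate together (r from -0.09 to 0.04), and the samples were treated as unpaired. The lack of a shared deviation cannot show whether same-numbered samples were prepared together. With the replicate number as a block 2 genes were lower at 6 hours and 22 higher, and at 48 hours 37 were lower and 12 higher.

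Directions turned with the probe set used. With the mean of all probe sets the difference was -0.66 for COX7B and 0.26 for NDUFB6 at 48 hours, 0.04 for NDUFV3 and -0.05 for UQCR10 at 6 hours, and -0.53 at 48 hours, -0.19 at 6 hours and -0.34 between the times for NDUFS1. Without _x_at and _s_at probe sets it was 0.66 at 48 hours and 0.22 between the times for NDUFB6, -0.19 for NDUFA2 at 48 hours, 0.29 for COX4I1, 0.27 for NDUFV3 and -0.50 for UQCR10 at 6 hours, and -0.94 at 48 hours, -0.10 at 6 hours and -0.83 between the times for NDUFS1. Of all values compared for the named genes and counts, 2483 kept their direction and side of the threshold, 78 lost and 36 gained a call, and 16 turned. The cause was not tested.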
